A study of Mus musculus with 44 samples.

Results

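The transcripts described are those of 10 genes of the circadian clock, followed in mouse ovarian follicles treated with PFNA, which is perfluorononanoic acid, a fluorinated surfactant of the per- and polyfluoroalkyl class. The genes were taken by symbol, namely Arntl, Clock, Npas2, Per1, Per2, Per3, Cry1, Cry2, Nr1d1 and Dbp, and all 10 have a row among the 22674 genes of the maturation table and among the 18274 genes of the ovulation table. Follicles came from wild-type CD-1 mice, an outbred stock, and poly-A RNA was sequenced in 44 libraries. In the maturation window, during gonadotropin-dependent growth, 11 control libraries had received DMSO, the solvent, and 10 libraries had received PFNA. In the ovulation window 12 control libraries had received hCG (human chorionic gonadotropin, which acts as the ovulatory stimulus) and 11 libraries had received hCG together with PFNA, so no library of that window lacked hCG. The labels give neither the dose of PFNA, nor its duration, nor the time of collection or the hour of the day, and they do not say whether the libraries of a group came from separate animals or cultures. P-values therefore measure the spread between these libraries, which may be technical.

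The clock is a feedback loop of transcription. ARNTL (also called BMAL1) pairs with CLOCK or with its paralogue NPAS2 and activates genes through E-boxes, and the PER and CRY proteins made from such genes return to the nucleus and inhibit the pair. A further loop runs through NR1D1 (REV-ERB alpha), which represses Arntl, and through DBP, which activates genes that carry a D-box. Clock transcripts cycle in the ovary as in other tissues, and gonadotropins are known to set the phase of the ovarian clock.

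Promoters of 4 of these genes are shown because the loops act through short motifs in them. Together with Per2, these are the genes whose control and PFNA libraries did not overlap in a window. Each is the 250 bases before the transcription start in the RefSeq annotation of GRCm38.p6, written 5′ to 3′ on the strand of the gene, and capitals mark a motif. RefSeq promoters were matched for 9 of the 10 genes, all but Per2, and Per1 is shown with the first of its 2. The motifs searched on both strands were the E-box (CACGTG), a variant E-box (CACGTT), the D-box (TTATGTAA), the cAMP response element (TGACGTCA) and the site of ROR and REV-ERB receptors (TAGGTCA). No match overlapped another.
Per1 (chr11:69098699-69098948, plus strand): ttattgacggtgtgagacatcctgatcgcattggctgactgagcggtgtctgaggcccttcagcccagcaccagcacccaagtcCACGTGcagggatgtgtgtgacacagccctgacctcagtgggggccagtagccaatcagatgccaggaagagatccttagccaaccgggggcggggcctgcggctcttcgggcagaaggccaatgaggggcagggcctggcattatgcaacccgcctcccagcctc
Per3 (chr4:151044666-151044915, minus strand): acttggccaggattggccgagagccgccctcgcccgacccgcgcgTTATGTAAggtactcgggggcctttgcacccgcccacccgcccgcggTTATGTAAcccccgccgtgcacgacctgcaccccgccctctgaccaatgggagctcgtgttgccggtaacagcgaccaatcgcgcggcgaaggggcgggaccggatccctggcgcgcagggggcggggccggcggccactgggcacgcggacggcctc
Cry1 (chr10:85185055-85185304, minus strand): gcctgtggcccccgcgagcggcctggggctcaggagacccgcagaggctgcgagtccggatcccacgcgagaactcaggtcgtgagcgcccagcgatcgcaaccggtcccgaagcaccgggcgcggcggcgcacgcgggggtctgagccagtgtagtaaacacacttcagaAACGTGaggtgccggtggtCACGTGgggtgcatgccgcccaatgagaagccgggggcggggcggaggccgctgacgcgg
Nr1d1 (chr11:98775378-98775627, minus strand): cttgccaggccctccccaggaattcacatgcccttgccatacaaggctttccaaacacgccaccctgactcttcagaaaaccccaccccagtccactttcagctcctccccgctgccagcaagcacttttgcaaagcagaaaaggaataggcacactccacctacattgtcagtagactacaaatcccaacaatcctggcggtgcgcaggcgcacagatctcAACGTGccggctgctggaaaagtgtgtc

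Per1 held an E-box at -166 to -161 from the start shown, and none of the searched letters were in its second promoter (chr11:69099902-69100151). Cry1 held an E-box at -60 to -55 beside a variant E-box at -79 to -74, read as AACGTG on the strand shown. Per3 held a pair of D-boxes, at -205 to -198 and at -158 to -151. The variant E-box also lay in the promoter of Nr1d1 at -28 to -23 and in that of Cry2 at -166 to -161, in the same reading. The searched letters were not in the windows of Arntl, Clock, Npas2 or Dbp, which says nothing about the factors that bind there. Over 32851 mouse promoters of the same length, 6.02% held the E-box, 3.85% the variant E-box, 0.819% the D-box, 1.55% the cAMP response element and 2.23% the receptor site, so Per3 carried a motif that few promoters hold, and carried it in 2 copies. A match is a description of the letters and no evidence of a bound site.

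Values of the maturation window are TPM (transcript abundances corrected for length and scaled to a fixed total of 1000000 in each library), for which the number of reads is unknown. Those of the ovulation window are estimated counts, with library totals of 10600931 to 19511531, given here as TMM-normalized CPM (counts per 1000000 counts of the library). On the first principal component all ovulation libraries parted by treatment, whereas PFNA replicates 1 and 2 of the maturation window, at -18.1 and -10.6, lay within the range of the maturation controls (-37.7 to -7.60). Granulosa markers were abundant in all libraries, with 8 of 8 genes at a group mean of at least 1 in each group. Their summed level was 36461 to 57580 TPM in maturation controls and 16747 to 43457 TPM with PFNA, and 5 of 8 fell. Oocyte markers fell in the maturation window, 11 of the 11 tested, with sums of 151 to 235 TPM in controls and 7.05 to 375 TPM with PFNA. PFNA replicate 10 was the highest of these at 375 TPM, and replicates 1 and 2 held 152 and 115 TPM. Of 7 theca markers 2 rose and 1 fell in that window, and 1 of 2 immune markers tested rose. Called in either direction were 0 of 3 endothelial and 0 of 5 stroma markers tested. Over all genes tested in the maturation window 29.4% were called and 16.1% were lower. In the ovulation window 7 of 11 oocyte markers tested, 5 of 7 theca markers, 5 of 5 endothelial markers, 5 of 8 granulosa markers and 3 of 5 stroma markers rose, while 2 granulosa markers and 1 stroma marker fell. Of the 6 immune markers 1 rose and 0 fell there. Of all genes tested in that window 73.2% were called and 38.0% were higher. The oocyte sum was 76.8 to 309 CPM in controls and 21.4 to 473 CPM with PFNA, and the theca sum was 181 to 576 CPM and 328 to 1428 CPM. No marker of these lists was at 0 in every library of a group. In bulk follicles, fewer cells of a type and less RNA per cell cannot be told apart.

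The question in each window was whether PFNA changed the level of the clock transcripts. After hCG the period genes moved in opposite directions: Per2 was 8.91-fold and Per3 4.15-fold higher with PFNA, whereas Per1 was 4.87-fold lower. The activators Clock and Arntl fell by less, and Npas2, Nr1d1, Dbp, Cry1 and Cry2 rose. All 10 genes passed the test, 7 higher and 3 lower. The background is high, since 73.2% of the 13441 genes tested were called in the ovulation window (38.0% higher and 35.2% lower). Against that background the number of calls is no result about these genes. The median of the absolute log2 fold changes was 0.93 over the clock genes and 0.58 over all genes tested, and the medians of the signed values were 0.66 and 0.04.

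The period genes encode repressors whose levels oscillate in many tissues. Per1 (chromosome 11, 69098949 to 69109957 on GRCm38, plus strand) ran from 108 to 171 CPM with a median of 129.9 in the 12 controls, and from 12.4 to 37.5 CPM with a median of 30.5 in the 11 PFNA libraries. The groups did not overlap, and replicate 6 was the lowest PFNA library. The means were 138 ± 22.4 (SD, n = 12) and 28.4 ± 6.94 (SD, n = 11) CPM, a log2 fold change of -2.28 (SE 0.133, adjusted p = 1.25e-13 by edgeR).

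Per2 (chromosome 1, 91415982 to 91459328, minus strand) was scarce in hCG controls, at 0.591 to 2.17 CPM with a median of 1.11, which rests on 6 to 30 counts in a library. With PFNA it ran from 8.90 to 12.9 CPM with a median of 10.4, on 101 to 231 counts. Every PFNA library lay above every control, and the PFNA libraries were the more uniform group, with a coefficient of variation of 14.0% against 45.8%. Low counts by themselves raise that coefficient, and how much of the contrast they make was not tested. The means were 1.20 ± 0.550 (SD, n = 12) and 10.7 ± 1.50 (SD, n = 11) CPM, a log2 fold change of 3.14 on the edgeR scale (SE 0.199, adjusted p = 4.42e-13 by edgeR).

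Per3 (chromosome 4, 151003655 to 151044665, minus strand), whose promoter holds the pair of D-boxes printed above, ran from 1.38 to 4.93 CPM with a median of 2.75 in controls. The PFNA libraries ran from 9.08 to 14.2 CPM with a median of 11.9, again without overlap. The log2 fold change was 2.05 (SE 0.158, adjusted p = 1.63e-11 by edgeR). In the per-sample plot of the ovulation window, Per1, Per2, Per3 and Cry1 are the panels in which the 2 groups share no level. Of all genes tested, 26.0% had groups that did not overlap (11.9% higher and 14.1% lower), against 4 of these 10 genes, 3 higher and 1 lower.

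**Figure D1:**
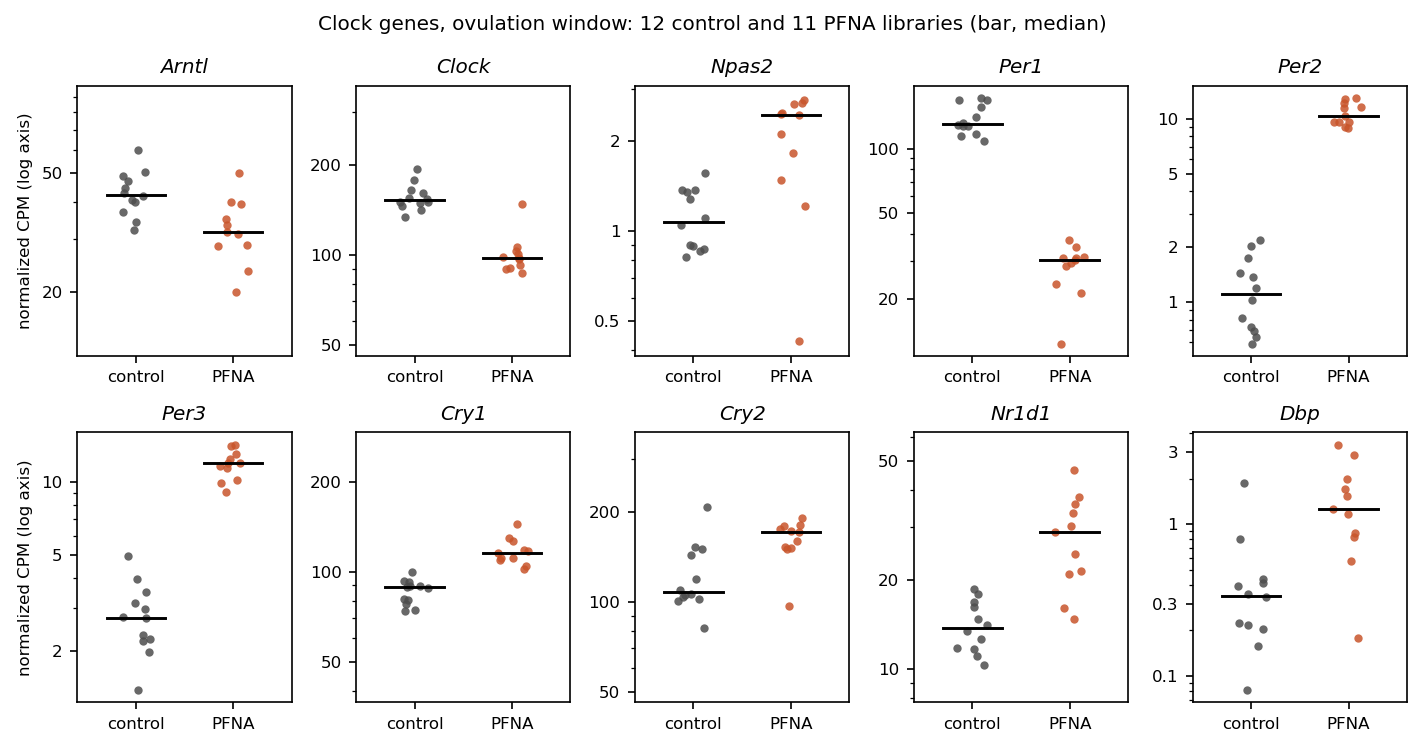
Normalized CPM on a log axis of each clock gene in the ovulation window, with 1 point per library, 12 hCG controls in grey and 11 hCG with PFNA libraries in orange, and a bar at the group median. Per1 fell from a median of 129.9 to 30.5 CPM, and Per2 rose from 1.11 to 10.4 CPM, with no overlap between the groups.

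The cryptochromes, which complete the repressor complex, rose by less. Cry1 (chromosome 10, 85131700 to 85185054, minus strand) ran from 73.7 to 99.9 CPM with a median of 88.7 in controls and from 102 to 145 CPM with a median of 115 with PFNA. Its groups did not overlap although the log2 fold change was only 0.45 (SE 0.0621, adjusted p = 4.36e-07 by edgeR), since libraries within a group differed little. Cry2 (chromosome 2, 92403647 to 92434069, minus strand) ran from 82.1 to 208 CPM in controls, median 108, and from 97.1 to 191 CPM with PFNA, median 172. No PFNA library lay beyond the controls, control replicate 4 was the highest of all and PFNA replicate 10 the lowest of its group. The log2 fold change of Cry2 was 0.39 (SE 0.126, adjusted p = 0.0075 by edgeR).

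Among the activators, Clock (chromosome 5, 76209868 to 76304792, minus strand) ran from 134 to 193 CPM, median 152, in controls and from 87.1 to 148 CPM, median 97.7, with PFNA. Of the 11 PFNA libraries 10 lay below every control, and the exception was replicate 6 at 148 CPM, the library in which Per1 was lowest at 12.4 CPM. Clock fell by 0.63 on the log2 scale (SE 0.0763, adjusted p = 4.92e-08 by edgeR). Its partner Arntl (chromosome 7, 113207465 to 113314126, plus strand) ran from 32.3 to 59.9 CPM, median 42.4, and from 20.01 to 49.9 CPM, median 31.8. Arntl fell by 0.40 (SE 0.123, adjusted p = 0.00553 by edgeR) with wide overlap, 6 of 11 PFNA libraries lying below every control.

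Npas2 (chromosome 1, 39194272 to 39363240, plus strand), which can stand in for Clock as the partner of ARNTL, moved the other way at a low level. Controls ran from 0.819 to 1.57 CPM, median 1.08, on 11 to 22 counts, and PFNA libraries from 0.429 to 2.74 CPM, median 2.46, on 6 to 47 counts. PFNA replicate 5 was the lowest of all 23 libraries at 0.429 CPM, and 8 PFNA libraries lay above every control. The same library had the lowest oocyte marker sum of the window, 21.4 CPM. The log2 fold change was 0.87 (SE 0.241, adjusted p = 0.00226 by edgeR). With the summed oocyte share as a covariate it was 0.47 (edgeR adjusted p = 0.142) and was no longer called. The place of Npas2 among 16523 genes, ranked by CPM per kilobase of exon, hardly moved. Its median percentile was 24.1 in controls (21.4 to 28.7) and 25.0 with PFNA (14.9 to 27.7).

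Nr1d1 (chromosome 11, 98767932 to 98775377, minus strand), the repressor of Arntl, ran from 10.4 to 18.5 CPM, median 13.8, in controls and from 14.8 to 46.4 CPM, median 28.8, with PFNA. Of 11 PFNA libraries 9 lay above every control, and the spread within the PFNA group was wide. The ratio of the means was 1.99, and the log2 fold change was 0.99 (SE 0.162, adjusted p = 5.58e-06 by edgeR). The end of Nr1d1 lies on 263 bases of exon of Thra, the thyroid hormone receptor alpha gene on the opposite strand, which is 8.55% of the exon bases of Nr1d1. The use of strand in counting is not given in the sources used here, so reads of the shared bases cannot be told apart. Thra itself rose by a log2 fold change of 0.47 (edgeR adjusted p = 0.000356).

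Dbp (chromosome 7, 45705247 to 45710203, plus strand), the D-box activator, rested on few counts in the ovulation window. Controls ran from 0.0807 to 1.88 CPM, median 0.338, on 1 to 25 counts, and PFNA libraries from 0.177 to 3.35 CPM, median 1.27, on 2 to 68 counts. The control with 25 counts, replicate 12, lay above 8 of the PFNA libraries, and 3 PFNA libraries lay above every control. The log2 fold change was 1.70 with a large error (SE 0.441, adjusted p = 0.00129 by edgeR). Dbp shares 539 exon bases, 18.0% of its own, with Sphk2 (sphingosine kinase 2) on the opposite strand. Sphk2 fell by 0.77 on the log2 scale (edgeR adjusted p = 4.49e-07). All 11 PFNA libraries lay below every control for it, as for 14.1% of all genes tested.

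Levels can be compared between genes only per length of exon. On CPM per kilobase of exon the control medians of the ovulation window were 26.6 for Cry1, 23.1 for Per1, 17.1 for Cry2, 11.1 for Clock, 5.63 for Arntl and 4.49 for Nr1d1. The remaining genes stood far lower, at 0.286 for Per3, 0.225 for Npas2, 0.189 for Per2 and 0.113 for Dbp. In that order the ranges of neighbours overlapped except between Clock (lowest 9.74) and Arntl (highest 7.96) and between Nr1d1 (lowest 3.38) and Per3 (highest 0.513). With PFNA the median of Per1 was 5.42 and stood in the fifth place, below Clock at 7.12. Per2 at 1.77 stood above Per3 at 1.24 (lowest Per2 1.52, highest Per3 1.48). That last order depends on the exon bases used, 5856 for Per2 and 9608 for Per3. Before division by length, Per3 stood above Per2 with PFNA, at medians of 11.9 and 10.4 CPM. The exon bases are those of GENCODE M21, and the gene models of the ovulation window differ from it, so orders between close genes are uncertain.

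In the maturation window the changes were smaller and of a different pattern. By the ratio of mean TPM, Nr1d1 was 1.93-fold higher with PFNA, Cry2, Clock, Per3 and Per2 rose by 1.22-fold to 1.39-fold, and Cry1 was 1.29-fold lower. Arntl, Per1 and Dbp did not pass the test, and Npas2 had a mean under 1 TPM and was not tested. Of 9 genes tested 5 were thus higher and 1 lower, against a background of 29.4% of 13712 genes called (13.3% higher and 16.1% lower). The median of the absolute log2 fold changes was 0.31 over the clock genes and 0.20 over all genes, and the medians of the signed values were 0.30 and 0.02. The log2 fold changes of this window are those of log2(TPM + 1), which understate the change of low genes.

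Nr1d1 gave the clearest change. Controls ran from 15.9 to 24.3 TPM with a median of 21.6, and PFNA libraries from 25.5 to 57.2 TPM with a median of 38.6. All 10 PFNA libraries lay above all 11 controls, among them replicates 1 and 2, at 39.3 and 29.9 TPM, which stood among the controls on the principal component. Groups failed to overlap for 1.28% of all genes tested, 0.489% in the higher and 0.788% in the lower direction. The means were 20.9 ± 2.71 (SD, n = 11) and 40.3 ± 10.8 (SD, n = 10) TPM, a log2 fold change of 0.88 (SE 0.125, adjusted p = 2.89e-05 by limma). It was 0.93 (SE 0.132) without replicates 1 and 2 and 0.97 (SE 0.185, adjusted p = 0.0071 by limma) after the oocyte share was added as a covariate. The overlapping gene Thra had a log2 fold change of 0.26 (limma adjusted p = 0.0719).

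Of the cryptochromes, Cry1 ran from 5.28 to 7.20 TPM, median 6.55, in controls and from 4.19 to 6.31 TPM, median 5.04, with PFNA. In 6 of 10 PFNA libraries it lay below every control, and replicate 10, which had the most oocyte RNA, was highest at 6.31 TPM. Cry1 fell by 0.31 on the log2 scale (SE 0.0633, adjusted p = 0.000921 by limma). Cry2 ran from 10.8 to 17.4 TPM, median 15.4, and from 15.9 to 20.96 TPM, median 19.4, with 8 of 10 PFNA libraries above every control. Its log2 fold change was 0.30 (SE 0.0729, adjusted p = 0.00428 by limma). The paralogues thus moved in opposite directions in the maturation window, whereas both rose after hCG. Oocyte markers fell alongside, and once that share entered as a covariate the values were -0.17 for Cry1 (limma adjusted p = 0.209) and 0.33 for Cry2 (limma adjusted p = 0.0733), past the threshold in neither. Treatment and that share largely coincide in this window, so these losses are no result about oocyte content.

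The period genes showed none of the large changes seen after hCG. Per2 ran from 1.91 to 4.43 TPM, median 2.83, and with PFNA from 2.72 to 5.02 TPM, median 3.88. Its log2 fold change was 0.37 (SE 0.109, adjusted p = 0.014 by limma) with 2 of 10 PFNA libraries above all controls. Per3 ran from 3.26 to 6.56 TPM, median 4.59, and from 4.16 to 8.99 TPM, median 6.34, a log2 fold change of 0.33 (SE 0.112, adjusted p = 0.0327 by limma). Per1 ran from 25.7 to 37.8 TPM, median 27.8, and from 26.2 to 40.0 TPM, median 32.3. The log2 fold change of Per1, 0.17 (SE 0.0797, adjusted p = 0.123 by limma), did not pass, but it was 0.20 and passed (limma adjusted p = 0.0468) without control replicate 2, the highest control.

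**Figure D2:**
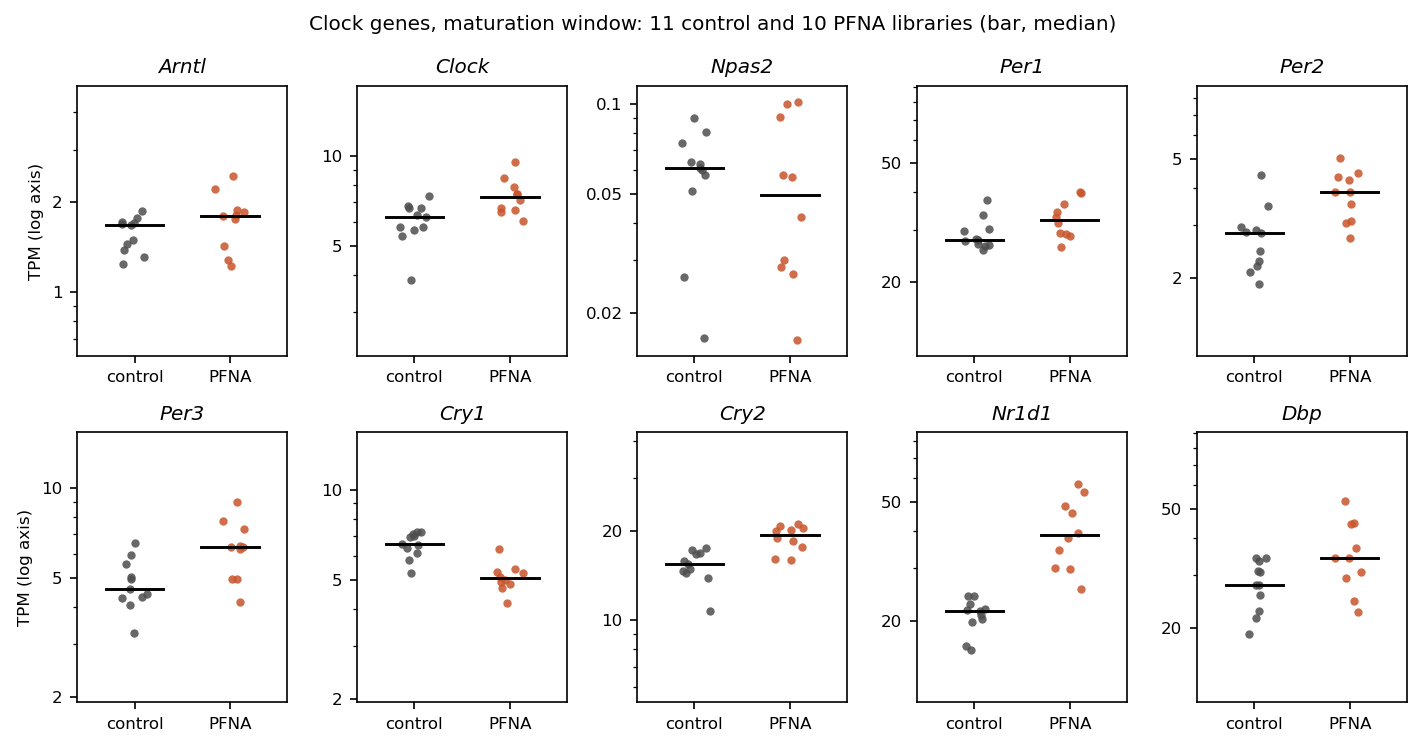
TPM on a log axis of each clock gene in the maturation window, with 1 point per library, 11 DMSO controls in grey and 10 PFNA libraries in orange, and a bar at the group median. Nr1d1 is the panel in which the groups do not overlap, with controls at 15.9 to 24.3 TPM and PFNA libraries at 25.5 to 57.2 TPM.

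Clock ran from 3.84 to 7.35 TPM, median 6.24, in maturation controls and from 6.07 to 9.58 TPM, median 7.30, with PFNA, a log2 fold change of 0.25 (SE 0.0873, adjusted p = 0.034 by limma). In 5 of 10 PFNA libraries it lay above every control. Arntl ran from 1.24 to 1.87 TPM, median 1.68, and from 1.23 to 2.44 TPM, median 1.80, with the groups overlapping throughout (log2 fold change 0.10, SE 0.0881, limma adjusted p = 0.437). Npas2 was barely present, at 0.0165 to 0.0900 TPM in controls and 0.0163 to 0.101 TPM with PFNA. Dbp ran from 19.2 to 34.2 TPM, median 27.8, and from 22.7 to 53.1 TPM, median 34.4. Its log2 fold change was 0.31 (SE 0.137, adjusted p = 0.0955 by limma) and passed without PFNA replicate 1, the lowest PFNA library, at 0.37 (limma adjusted p = 0.0332). Sphk2, which shares exon bases with Dbp, had a log2 fold change of 0.08 (limma adjusted p = 0.398).

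Several of these maturation calls rested on single libraries. The call of Per3 was lost when PFNA replicate 4, 5 or 10 or control replicate 3, 7, 10, 11 or 12 was left out, and that of Clock without PFNA replicate 4, 5, 7 or 10 or control replicate 7 or 12. Without PFNA replicates 1 and 2 together, the values were 0.42 for Per2, 0.30 for Clock, 0.32 for Per3, -0.32 for Cry1 and 0.30 for Cry2, all still past the threshold, and Dbp passed at 0.38 (limma adjusted p = 0.0353). With the oocyte share as a covariate, Nr1d1 was the only one of these 10 genes called, while the calls over all genes fell from 4030 to 773. The median oocyte sum was itself 15.8 TPM with PFNA against 202 TPM in controls. Covariate and treatment thus largely coincide in this window, and whether oocyte content accounts for a lost call was not tested.

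In maturation controls the order of the median TPM was Dbp and Per1 at 27.8 each, Nr1d1 at 21.6, Cry2 at 15.4, Cry1 at 6.55, Clock at 6.24, Per3 at 4.59, Per2 at 2.83, Arntl at 1.68 and Npas2 at 0.0612. Ranges of neighbours overlapped except between Per1 (lowest 25.7) and Nr1d1 (highest 24.3), between Cry2 (lowest 10.8) and Cry1 (highest 7.20), between Per2 (lowest 1.91) and Arntl (highest 1.87), and between Arntl and Npas2. Dbp thus stood at the top of this order in the maturation window and at the bottom of the order after hCG, in tables that were normalized separately.

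A test of the effect of PFNA in 1 window against the other was possible for 9 of the genes, as the effect on log2(CPM + 1) after hCG minus the effect on log2(TPM + 1) in maturation. The effect differed for 6 of 9 genes, against 67.7% of 11215 genes tested (32.0% higher and 35.6% lower in the ovulation window). It was lower after hCG for Per1, by -2.44 (95% interval -2.75 to -2.13, limma adjusted p = 5.74e-17), for Clock, by -0.89 (adjusted p = 6.34e-09), and for Arntl, by -0.50 (adjusted p = 0.00274). It was higher after hCG for Per2, by 2.07 (95% interval 1.73 to 2.41, limma adjusted p = 1.39e-14), for Per3, by 1.44 (adjusted p = 4.60e-10), and for Cry1, by 0.76 (adjusted p = 4.49e-10). Clock rose in the maturation window and fell after hCG, and Cry1 did the reverse. For the other three genes no difference passed the test: the intervals were -0.39 to 0.41 for Nr1d1, -0.18 to 0.41 for Cry2 and -0.05 to 0.89 for Dbp (limma adjusted p 0.968, 0.486 and 0.111). The interval of Nr1d1 leaves room for a difference of 0.41 upward or 0.39 downward on the log2 scale, and for Dbp the pseudocount compresses the effect after hCG, which was 0.73 here and 1.70 in the test on counts. It likewise compresses the effects after hCG of Per2, at 2.44 here and 3.14 in the test on counts, and of Per3, at 1.76 and 2.05. With a pseudocount of 0.1 in place of 1 the difference for Dbp was 1.22 and passed (limma adjusted p = 0.0122).

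**Figure D3:**
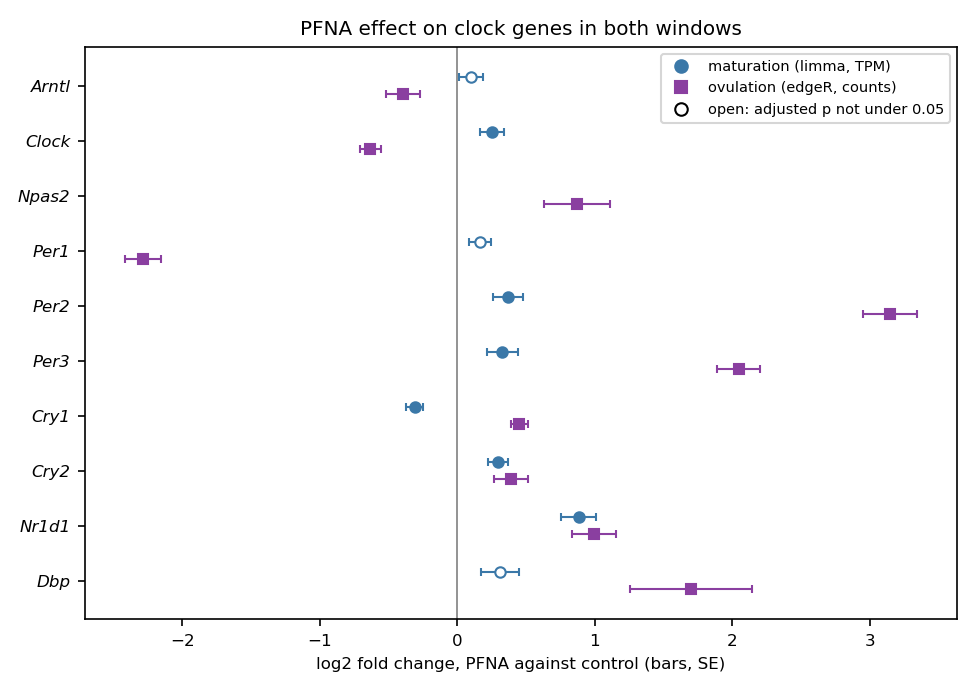
Log2 fold change of PFNA against control with its standard error for each clock gene, in the maturation window (blue circles, limma on TPM) and the ovulation window (purple squares, edgeR on counts), with open symbols where the adjusted p was not under 0.05. Per1, Per2 and Per3 lie apart between windows, at 0.17 and -2.28, 0.37 and 3.14, and 0.33 and 2.05, whereas Nr1d1 lies at 0.88 and 0.99.

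The wider clock was read from 26 further genes in 2 lists. The list of 13 loop genes holds paralogues and co-regulators of the genes above. In the maturation window 6 of 9 tested rose and 2 fell (median log2 fold change 0.32, against 0.02 over all genes), and after hCG 6 of 11 tested rose and 3 fell (median 0.58, against 0.04). All genes called were 29.4% in maturation and 73.2% after hCG, so 8 of 9 stood above that share and 9 of 11 near it. The list of 13 enzymes holds kinases, phosphatases, ubiquitin ligases, deubiquitinases and a deacetylase that act on clock proteins. In maturation 3 of 12 tested rose and 1 fell (median 0.13), and after hCG 3 of 12 rose and 7 fell (median -0.24). These counts, 4 of 12 and 10 of 12, lie near the same shares and are no result about the enzymes.

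Nr1d2, which encodes REV-ERB beta and has the same targets as Nr1d1, rose in both windows. It held 16.1 to 24.04 TPM in maturation controls (median 21.2) and 21.7 to 31.4 TPM with PFNA (median 26.9), a log2 fold change of 0.32 (limma adjusted p = 0.00253). After hCG controls held 42.6 to 64.9 CPM and PFNA libraries 102 to 203 CPM, a log2 fold change of 1.30 (edgeR adjusted p = 5.97e-12) with 11 of 11 libraries above every control. Tef, an activator of the same family as Dbp that binds the D-box, held 7.28 to 18.3 CPM in hCG controls and 40.8 to 67.7 CPM with PFNA. Its log2 fold change after hCG was 2.05 (SE 0.128, adjusted p = 3.07e-13 by edgeR), without overlap, on 74 to 999 counts, and in maturation it was 0.21 (limma adjusted p = 0.063). Of all genes tested after hCG, 11.9% were higher without overlap. Nfil3, which represses at the D-box, rose in maturation by 0.86 (SE 0.204, adjusted p = 0.00323 by limma) and fell after hCG by 0.43 (SE 0.149, adjusted p = 0.0122 by edgeR). After the oocyte share entered as covariate, the maturation calls of Nr1d2 and Nfil3 were lost (limma adjusted p = 0.107 and 0.185).

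Bhlhe40 (DEC1), a repressor at E-boxes, held 38.2 to 56.1 TPM in maturation controls and 51.9 to 91.0 TPM with PFNA, a log2 fold change of 0.55 (limma adjusted p = 0.000163) with 9 of 10 PFNA libraries above every control. After hCG it held 143 to 345 CPM in controls and 47.1 to 153 CPM with PFNA, and fell by 1.32 (SE 0.169, adjusted p = 1.73e-07 by edgeR). Ciart, which encodes a repressor of the ARNTL complex, fell by 0.65 in maturation (limma adjusted p = 0.00182) and had a log2 fold change of -0.44 after hCG (edgeR adjusted p = 0.118). Timeless, whose protein also serves at replication forks, held 9.28 to 16.8 TPM in maturation controls and 2.86 to 13.1 TPM with PFNA, and fell by 1.37 (SE 0.181, adjusted p = 1.72e-05 by limma). After hCG it rose by 1.49 (SE 0.217, adjusted p = 1.06e-06 by edgeR), with 4.92 to 11.1 CPM in controls and 7.93 to 45.9 CPM with PFNA. After the oocyte share entered as covariate, the maturation calls of Bhlhe40 and Ciart were lost (limma adjusted p = 0.0899 and 0.0651), and that of Timeless held at -0.89 (limma adjusted p = 0.032).

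Of the enzymes, Csnk1d, the casein kinase that phosphorylates PER proteins, held 272 to 347 CPM in hCG controls and 172 to 237 CPM with PFNA, and fell by 0.55 (SE 0.0608, adjusted p = 1.21e-08 by edgeR). Csnk2a1, a catalytic subunit of casein kinase 2, held 144 to 180 CPM and 91.3 to 128 CPM, and fell by 0.60 (SE 0.0527, adjusted p = 2e-10 by edgeR). For both genes 11 of 11 PFNA libraries lay below every control. Of the 23 further clock genes tested after hCG, 2 had no overlap in the higher and 2 in the lower direction. Over all genes tested the shares were 11.9% and 14.1%, so such separation is not particular to these genes. In maturation Csnk1d rose by 0.16 (limma adjusted p = 0.0114) and Csnk2a1 had a value of -0.07 (limma adjusted p = 0.282). Usp2, a ubiquitin protease, fell in maturation by 0.45 (limma adjusted p = 0.00729), and its value after hCG was 0.36 (edgeR adjusted p = 0.121). Both maturation calls were lost under the oocyte covariate, where Usp2 was at -0.15 (limma adjusted p = 0.571) and Csnk1d at 0.18 (limma adjusted p = 0.111).

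**Figure D4:**
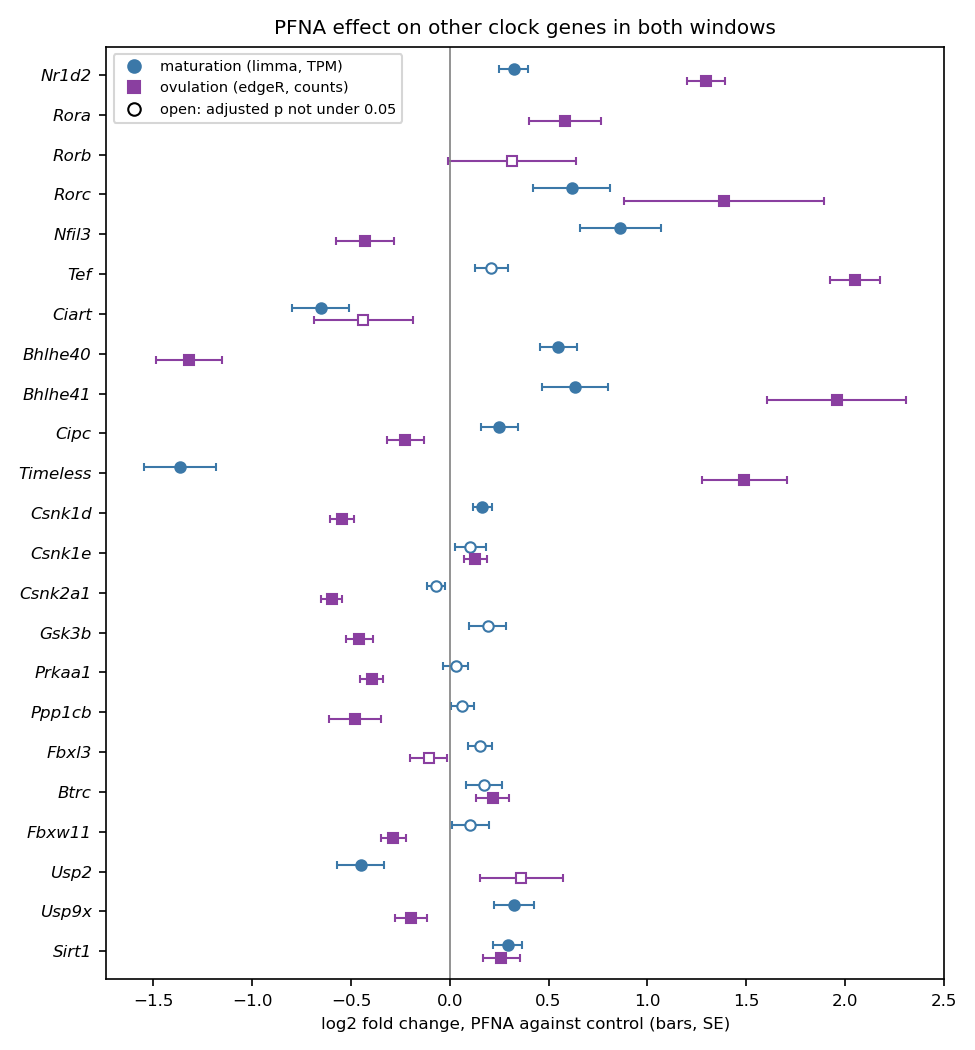
Log2 fold change of PFNA against control with its standard error for the further clock genes tested in at least 1 window, in the maturation window (blue circles) and the ovulation window (purple squares), with open symbols where the adjusted p was not under 0.05. Tef and Nr1d2 lie at 2.05 and 1.30 after hCG, and Timeless lies at -1.37 in maturation and 1.49 after hCG.

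In a running clock, transcripts of the loops vary together or in opposition between samples that differ in phase. Covariation was examined within each group, where the difference between group means does not enter. The size of the response can still differ among the PFNA libraries. The hour of collection is not given, so it is unknown whether libraries of a group differ in phase. A lack of covariation therefore says nothing about whether the clock ran. The pairs were Arntl with Dbp, Nr1d1 and Npas2, Dbp with Nr1d1 and Per3, and Per1 with Per2, which gave 24 relations over the 4 groups. None passed after adjustment over the 24 relations, by Pearson or by Spearman, and 2 had an unadjusted permutation p for Pearson's r under 0.05. These were Arntl with Npas2 in maturation controls (r = 0.65, permutation p = 0.0283, adjusted p = 0.542, rho = 0.573 with permutation p = 0.0699, n = 11) and Arntl with Nr1d1 in ovulation PFNA libraries (r = 0.61, permutation p = 0.0451, adjusted p = 0.542, rho = 0.609 with permutation p = 0.053, n = 11). Without the 2 libraries farthest from the median of Arntl, r was 0.516 and 0.601. Other relations moved more without 2 libraries: in maturation controls r went from 0.129 to -0.304 for Arntl with Nr1d1 and from 0.0666 to 0.664 for Per1 with Per2. Per1 and Per2, which moved apart between groups, had r of -0.253 in ovulation controls (permutation p = 0.419, rho = -0.322, n = 12) and -0.416 in ovulation PFNA libraries (permutation p = 0.209, rho = -0.100, n = 11). In the maturation window their r was positive, at 0.0666 in controls (permutation p = 0.838, rho = 0.191, n = 11) and 0.267 with PFNA (permutation p = 0.449, rho = 0.261, n = 10). With 10 to 12 libraries a group, a moderate relation could be missed.

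As a description with no test, the genes whose deviations from the group means followed Dbp most closely were Slc46a3, Mrnip and Phospho1 in the maturation window (r = 0.658, 0.646 and 0.633 over 21 libraries). In the ovulation window they were Sdhc, Naif1 and Susd2 (r = 0.657, 0.636 and 0.632 over 23 libraries). None of these is a clock gene of the lists used here, and of the other genes among the 10, Per2 had the highest positive r with Dbp, at 0.292 in maturation and 0.213 after hCG. Negative r of greater size were those of Cry1 (-0.380) and Cry2 (-0.353) in maturation and of Clock (-0.237) after hCG. The libraries share normalization and composition, and Dbp rests on few counts in the ovulation window.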

How the data were processed

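The authors deposited 1 gene table per window. That of maturation carries raw counts in its name, yet its values, as deposited, are TPM: each of its 21 libraries summed to 1000000 and 82.3% of values were not whole (tolerance 0.001). The values deposited for ovulation are estimated counts, 14.9% of them not whole, and were rounded before testing. The submitters' processing notes name Partek, Bowtie2 and HISAT2, with no role or version, and the use of strand is not given in the sources used here. Positions matched GRCm38, and the GENCODE M21 start matched for 99.39% of symbols for maturation and 37.2% for ovulation, and the gene models therefore differ. Exon bases came from GENCODE M21. Sample titles linked the columns to the samples. A maturation column whose name differs by 1 letter from the title of control replicate 6 was taken as that library. The maturation samples hold no control replicate numbered 4. No library repeated another: within a group the highest correlation of log2(TPM + 1) was 0.981, and the lowest chi-square per degree of freedom between count libraries was 7.54.

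The maturation window was tested with limma 3.58.1 (trend, robust) on log2(TPM + 1) for 13712 genes whose mean reached 1 TPM, and the ovulation window with edgeR 4.0.16 (quasi-likelihood, filterByExpr, TMM, robust) over 13441 genes, in R 4.3.3. The difference between windows is the limma effect on log2(CPM + 1) minus that on log2(TPM + 1), and its degrees of freedom are Satterthwaite's. Benjamini-Hochberg adjustment ran over all genes tested, and an adjusted p under 0.05 was called. Scripts were tested on simulated data. Correlations within groups used two-sided permutation tests of 100000 resamples. Alternatives were DESeq2 1.42.0, other scalings, filters and pseudocounts, a replicate block, the oocyte share as a covariate, and leaving out libraries. The members, lists and tests were chosen with earlier results of these data known. Genes named beside the 10 are, per window, the 3 higher and 3 lower of the other clock genes with the smallest p among those called, and the 3 most like Dbp. Sphk2 and Thra are named for overlap with members.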

Additional observations from a re-analysis of the deposited data

Results flagged for a closer look

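The effect of PFNA differed between the windows by the limma test of the difference itself (ovulation minus maturation, adjusted over 11215 genes) for 6 of the 9 clock genes tested in both windows, with values of -0.50 for Arntl, -0.89 for Clock, -2.44 for Per1, 2.07 for Per2, 1.44 for Per3 and 0.76 for Cry1. Among the 9 other clock genes named, which were chosen by their small p in a window, it differed for 8: 0.94 for Nr1d2, -1.27 for Nfil3, 1.79 for Tef, -1.90 for Bhlhe40, 2.65 for Timeless, -0.71 for Csnk1d, -0.53 for Csnk2a1 and 0.73 for Usp2. Without that choice it differed for 16 of the 21 other clock genes tested in both windows. Since 67.7% of all genes tested differed between windows, these counts are not particular to the clock. Each window has its own table, unit and gene models, and a batch that acts on the PFNA effect cannot be told apart from the window.

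In the maturation PFNA group of 10 libraries, Timeless stood at 13.1 TPM in replicate 1, and the next library, replicate 2, had 6.97 TPM. Of 19 results searched with Dixon's critical value of 0.466 this was the only 1, and 0.95 are expected by chance. On the leading principal component both libraries had scores in the control range, and they held 152 and 115 TPM of oocyte markers. The groups of more than 10 libraries were not searched.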

How the results depend on the processing

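After hCG, calls of the 10 clock genes kept their direction and their side of the threshold under DESeq2, median-ratio size factors, no filter, the replicate block, the oocyte covariate and each omission of a library, except that Npas2 was lost with the oocyte covariate and that Dbp was not tested in 2 of the 23 fits that left out a library. In maturation the Nr1d1 call held in all alternatives. With the oocyte share as a covariate 773 genes were called in place of 4030, and of the clock genes 1 was higher and 0 lower, and of the other clock genes 1 was higher and 1 lower. That share was lower in most maturation PFNA libraries, so a call lost in this fit is no result about oocyte content. Leaving out each library in turn gave 3 to 6 clock genes higher, with 3 without PFNA replicate 4, 5 or 10 or control replicate 7 or 12. Replicate numbers showed no sign of pairing the samples, though a pairing is not excluded. Deviations of same-numbered libraries correlated at -0.138 to 0.168 in maturation (over 0.1 in 1 of 9 pairs) and -0.193 to 0.073 in ovulation (0 of 11). In 0 of these pairs was each library the best match of the other. The replicate block left 2895 genes called in maturation and 9333 after hCG, against 9837, with 2 clock genes and 4 other clock genes higher in maturation. The maturation calls of Clock, Per2, Per3, Nr1d2 and Csnk1d were lost there. The difference for Nr1d1 was -0.0355 without the 2 PFNA libraries near the controls, and that for Dbp was 1.22 (limma adjusted p = 0.0122) with a pseudocount of 0.1. The correlation of Arntl with Nr1d1 was -0.0742 in maturation controls and -0.201 in maturation PFNA libraries with median-ratio size factors, against 0.129 and 0.105. Where no value shows it, the cause of these moves was not tested. Low counts limit Dbp, Npas2 and Per2 in hCG controls.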

Other observations

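The place of each clock transcript among all genes was also read, as a description with no test, from 16523 genes present in both tables, by percentile of TPM in the maturation window and of CPM per kilobase of exon in the ovulation window. The tables were normalized separately and use different gene models. Dbp stood at the median percentile of 80.7 in maturation controls and 19.3 in hCG controls. Its lowest maturation control was at 72.2 and its highest hCG control at 31.7, so these ranges did not overlap. Per2 stood at 41.9 and 23.5, Per3 at 47.9 and 26.3, and Nr1d1 at 75.4 and 57.9. The activators stood higher in hCG controls, with Arntl at 34.7 and 61.6, Clock at 52.6 and 74.5, and Npas2 at 13.0 and 24.1. So did the cryptochromes, with Cry1 at 53.9 and 87.8 and Cry2 at 69.4 and 82.3. Per1 was at 79.5 and 86.7. With PFNA after hCG, Per2 stood at 42.3, Per3 at 36.2, Nr1d1 at 72.6, Per1 at 60.9 and Npas2 at 25.0. Dbp, at 24.7, stood far under its place in the maturation window.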
